A study of Mus musculus with 3 samples.

Results

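Transcripts of 9 genes for inhibitors of granule and lysosomal proteases were measured in 3 sorted mouse cell populations, as part of 22180 genes on the array. The genes were Serpinb1a, Serpinb6a and Serpinb9 (serpins), Cst3 and Cstb (cystatins), Ctla2a and Ctla2b (relatives of cathepsin propeptides), Spink4 (a Kazal-type gene) and Slpi (a WAP-domain gene). They were chosen by name, as families of such inhibitors, with their levels on these same arrays already known, so their counts are a description and no support for any pattern. All 9 were measured, and 11 probe sets named them.

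The cells came from the peritoneal cavity of naive female BALB/c mice aged 10 to 11 weeks, which carried no treatment, and the cells of 5 mice were pooled before sorting. Mature mast cells and mast cell progenitors shared a gate that was lineage negative or low, positive for FcεRI (the high-affinity IgE receptor) and T1/ST2, high for c-kit, intermediate for CD16/32, and negative for CD127 and CD25. Mature cells had high side scatter and integrin β7 that was at most intermediate, whereas for progenitors side scatter was low and integrin β7 high. Type 2 innate lymphoid cells were lineage negative, c-kit negative or low, FcεRI and CD16/32 negative, and positive for CD127, CD25 and T1/ST2. From each population 100 cells were lysed and their RNA amplified onto 1 array, so values carry no error and differences could not be tested. A value for sorted cells does not tell fewer expressing cells from less RNA per cell.

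Granule and lysosomal proteases are stored at high concentration inside the cell, and a leak into the cytosol or out of the cell can damage the cell or its neighbours. Serpins trap serine proteases by offering a loop as bait and then locking the enzyme in an inactive complex. Cystatins block the active site of cysteine cathepsins, and the Ctla2 proteins resemble the propeptide that keeps such cathepsins inactive until it is removed. Mast cells carry serine proteases and a carboxypeptidase in their granules, and cytotoxic lymphocytes carry granzymes.

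Of the inhibitor genes 3 differed at least 4-fold between populations, and each had its highest level in a different one. Serpinb1a was highest in mature mast cells, Spink4 in progenitors and Ctla2a in type 2 innate lymphoid cells. A difference was counted when log2 levels on a pair of arrays were at least 2 apart, which is 4-fold, and the brighter level lay above its array's median over probe sets of a single gene. Among all genes 0.947% passed this rule in either direction between mature mast cells and progenitors, 0.974% between mature mast cells and innate lymphoid cells and 1.1% between progenitors and innate lymphoid cells. The array medians were 6.30 for mature mast cells, 6.32 for progenitors and 6.30 for innate lymphoid cells. Of the other 6 genes, Cst3 and Cstb differed by less than this rule, Ctla2b was below the median on every array, and Serpinb6a, Serpinb9 and Slpi had exactly the same value on all 3 arrays. Whether the transcripts of a tied gene differ cannot be read from such a value, and 47.9% of all genes were tied in this way.

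**Figure D1:**
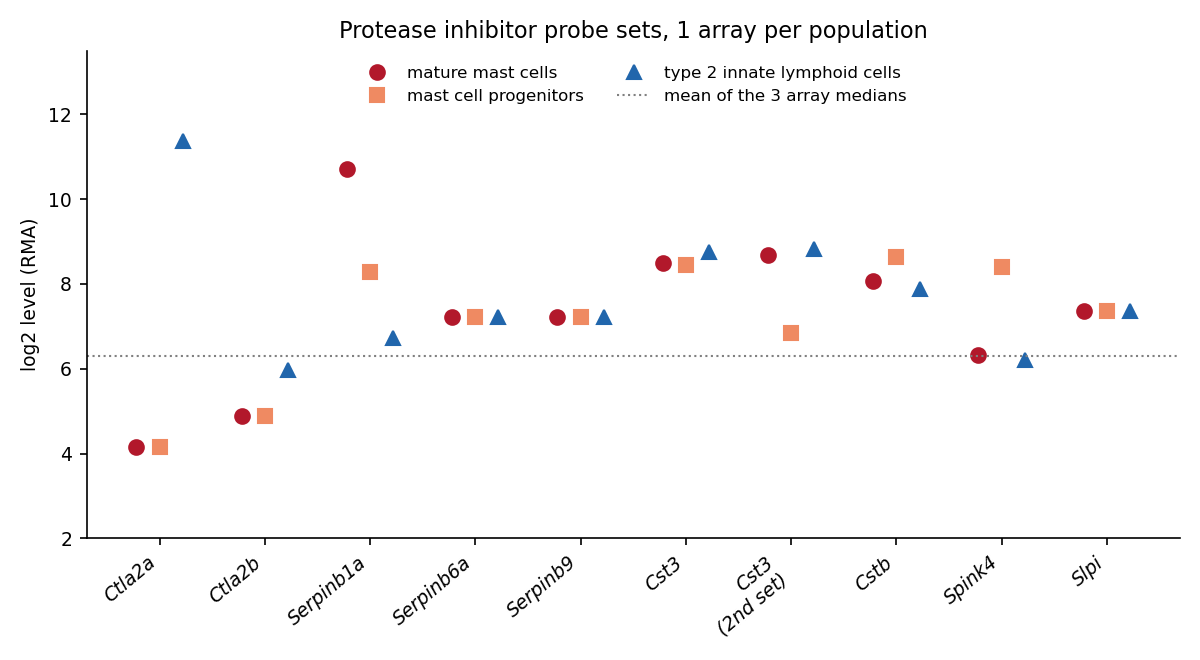
Log2 level (vertical axis) of the 10 probe sets that name a single inhibitor gene, with 1 point per population (circles, mature mast cells; squares, mast cell progenitors; triangles, type 2 innate lymphoid cells). Levels are to be read within a gene: Serpinb1a steps down through the 3 populations, Spink4 stands up in progenitors, Ctla2a stands up in innate lymphoid cells, and 3 genes are tied.

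Ctla2a and Ctla2b are related genes and near neighbours on mouse chromosome 13, where RefSeq places 1 gene, Tpbpb, between them. Ctla2a protein is known to inhibit cathepsin L, and both genes were first described from activated T cells and mast cells of the mouse. Their start regions are shown because the genes are relatives, of which Ctla2a passed the 4-fold rule between populations and Ctla2b did not. Each run holds 250 bases before and 50 after a RefSeq start site, read 5′ to 3′ on the minus strand of GRCm38.p6, at chr13:60936576-60936875 for the upstream start of Ctla2a and chr13:60897398-60897697 for Ctla2b. Capitals mark a GATA word, the kind of site that GATA factors of mast cells and innate lymphoid cells bind.
Ctla2a: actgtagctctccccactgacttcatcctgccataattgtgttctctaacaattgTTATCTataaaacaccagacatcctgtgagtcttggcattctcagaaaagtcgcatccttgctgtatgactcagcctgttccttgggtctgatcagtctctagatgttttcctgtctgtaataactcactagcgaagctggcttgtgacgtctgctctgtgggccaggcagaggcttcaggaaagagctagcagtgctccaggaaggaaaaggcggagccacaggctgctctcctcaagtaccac
Ctla2b: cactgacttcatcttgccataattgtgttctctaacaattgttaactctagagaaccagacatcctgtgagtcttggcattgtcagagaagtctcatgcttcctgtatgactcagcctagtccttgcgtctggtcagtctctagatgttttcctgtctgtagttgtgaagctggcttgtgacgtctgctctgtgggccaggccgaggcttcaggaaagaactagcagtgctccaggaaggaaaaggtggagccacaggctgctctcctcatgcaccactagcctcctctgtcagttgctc

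The windows matched at 255 of 286 aligned positions (89.2% identical), with 23 mismatches and 8 gap positions. The words searched were GATAA and GATAG with an A or a T before them, taken on both strands, a choice made after these sequences had been read. The Ctla2a window held 1 word, AGATAA on the opposite strand, starting 195 bases before the start site, and the Ctla2b window held 0. A word of this set was present in 29.8% of 32851 RefSeq start windows of the same length, and AGATAA alone in 11.2%. A later RefSeq start of Ctla2a gave a window with 0 words. Of the 9 genes 6 had a window in the table used, and the only other one with a word was Slpi, with TGATAA. A match is a description of letters, and the reference is a C57BL/6J genome whereas the cells were BALB/c.

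Ctla2a was at a log2 level of 4.16 in mature mast cells, 4.16 in progenitors and 11.37 in type 2 innate lymphoid cells. Both mast cell values were the same number and lay below their arrays' medians, and the innate lymphoid value lay far above its own. The measured log2 differences were -7.22 for mature mast cells minus innate lymphoid cells and -7.22 for progenitors minus innate lymphoid cells. Since the dimmer levels lie below the array median, the folds are given over that median, which puts mature mast cells at least 33.7-fold lower and progenitors at least 33.3-fold lower. With every level below an array's median set to that median, Ctla2a ranked 2 of 89 genes lower in mature mast cells than in innate lymphoid cells and 4 of 197 lower in progenitors than in innate lymphoid cells.

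Ctla2b was at 4.88 in mature mast cells, 4.89 in progenitors and 5.96 in innate lymphoid cells. All 3 values lay below their arrays' medians, so the gene passed the level floor on none of the arrays, and no order of the populations is read from them. Tpbpb, the trophoblast gene that lies between them, was tied at 4.58 on all arrays. It is not known from the files whether probes of Ctla2a and Ctla2b each bind the other transcript, and a part of such binding in these values was not tested.

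The 5 genes nearest to Ctla2a, by the Euclidean distance between log2 levels over the 3 arrays, were Pomp, Casp1, Fabp5, Gbp8 and Spcs3, at distances of 2.01 to 2.92. Pomp, which encodes a proteasome assembly factor, was at 5.12 in mature mast cells, 5.65 in progenitors and 10.43 in innate lymphoid cells. Casp1, which encodes the inflammatory caspase, was at 5.38, 5.53 and 10.24 in the same order. The nearest gene thus lay 2.01 log2 units away. In both mast cell populations, however, Ctla2a and these 5 genes all lay below the array medians. The distances rest in part on such levels, so they are not compared with those of the genes described next.

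**Figure D2:**
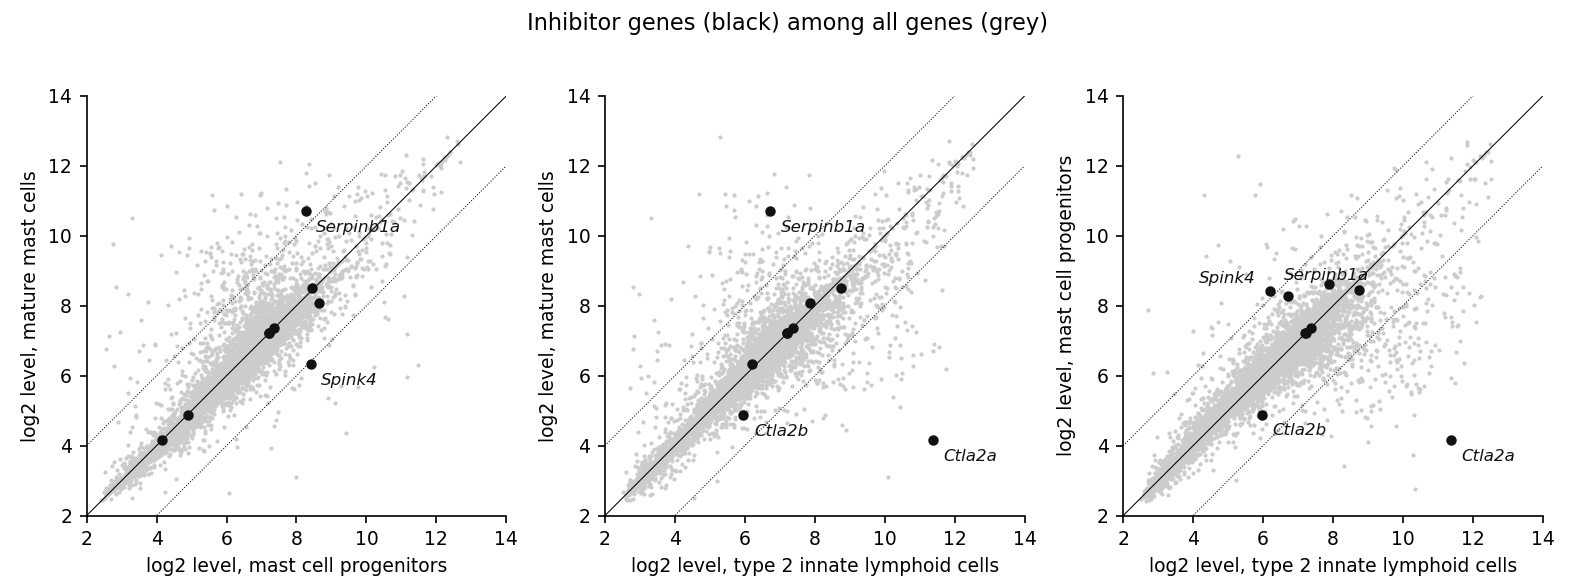
Log2 levels of all 22180 genes (grey) and of the 9 inhibitor genes (black) in mature mast cells against progenitors (left), mature mast cells against type 2 innate lymphoid cells (middle) and progenitors against type 2 innate lymphoid cells (right). The solid line marks equal levels and dotted lines 4-fold differences, and genes at least 2-fold apart are named: Ctla2a lies at the lower right of both panels with innate lymphoid cells, and Serpinb1a and Spink4 lie on opposite sides of the line between the mast cell populations.

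Serpinb1a encodes an intracellular serpin known to inhibit neutrophil elastase, cathepsin G, proteinase 3 and chymase. Its level was 10.71 in mature mast cells, 8.27 in progenitors and 6.73 in type 2 innate lymphoid cells. All 3 values lay above their arrays' medians. Mature mast cells were 5.41-fold higher than progenitors (log2 difference 2.44) and 15.8-fold higher than innate lymphoid cells (3.98). Progenitors were 2.92-fold higher than innate lymphoid cells (1.55), which is below the 4-fold rule. With levels below an array's median again set to it, the difference ranked 87 of 185 genes higher in mature mast cells than in progenitors, and 16 of 127 genes higher in mature mast cells than in innate lymphoid cells. Ranked by measured differences, with no level reset, it was 123 of 185 and 30 of 127. Steps of at least 2-fold at both points, from mature mast cells down to progenitors and from progenitors down to innate lymphoid cells, were found for 13 of 22180 genes (0.0586%), and Serpinb1a was one of them. That count set no floor, and its share is over all genes, tied ones included. The order counted was the one already seen for Serpinb1a, so its place among the 13 is a description and no support.

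The 3 serpin genes belong to a cluster of 17 clade B serpin genes, 1 of them a pseudogene, that RefSeq lists on chromosome 13. Levels were available for 15 of these. Of the 14 other than Serpinb1a none reached 4-fold between any pair of arrays, 7 were tied on all arrays and 12 stayed within 2-fold. Among all genes 47.9% were tied on all arrays and 4.46% spread over 2-fold or more. Serpinb9f, a paralogue of the granzyme B inhibitor gene Serpinb9, was at 6.59 in mature mast cells, 7.77 in progenitors and 6.61 in innate lymphoid cells. Serpinb9e, chosen here after its values were seen, was at 3.97 in mature mast cells, 4.60 in progenitors and 5.62 in innate lymphoid cells, all below the array medians. Serpinb1c, a close relative of Serpinb1a, was at 6.57, 6.92 and 6.57 in the same order of populations. None of the other 14 was highest in mature mast cells by 2-fold.

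Serpinb9, a granzyme B inhibitor of lymphocytes, was at 7.22 in all 3 populations. Serpinb6a, whose protein binds cathepsin G among other proteases, was at 7.21 in all 3. A further probe set, which names Serpinb6a together with a second gene, was tied at 5.35 and cannot be assigned to either. Both serpins lay above the array medians, and their ties leave differences between the populations unread. The Serpinb6a value, 7.2094, was also that of the NK cell marker Prf1 on all 3 arrays. A tied level above the median is therefore not read as presence of the transcript.

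**Figure D3:**
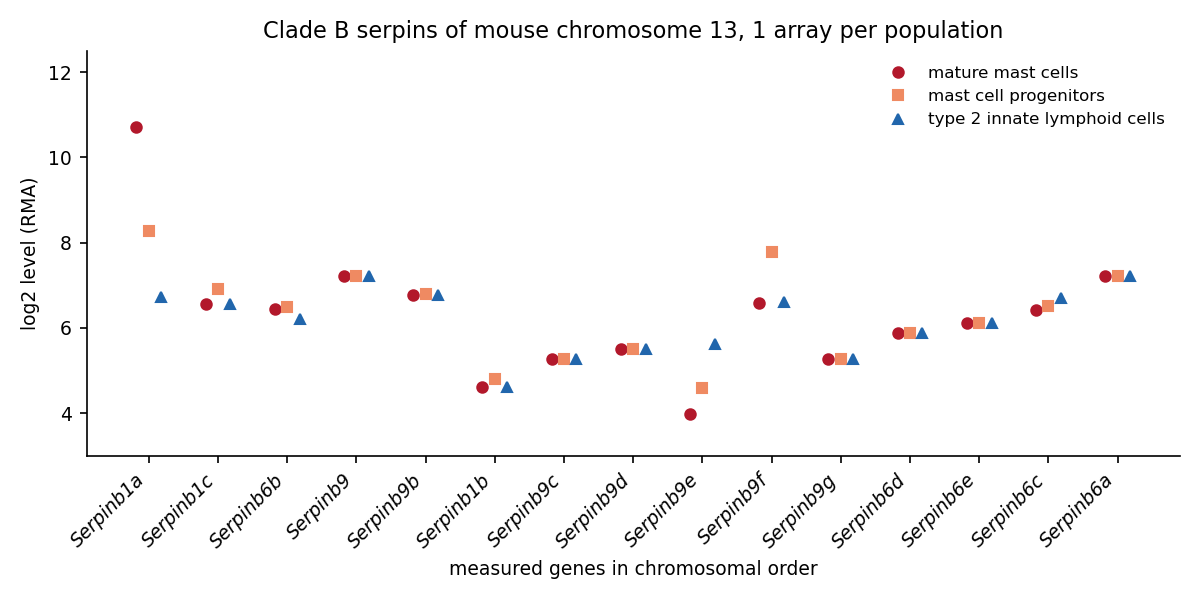
Log2 levels (vertical axis) of the 15 measured clade B serpin genes of mouse chromosome 13 in chromosomal order, with 1 point per population (circles, mature mast cells; squares, mast cell progenitors; triangles, type 2 innate lymphoid cells). Serpinb1a is spread over 3.98 log2 units, whereas 12 of the other 14 genes stay within 1 unit.

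The genes nearest to Serpinb1a were Ube2d2a, Smok4a, Mrgprb1, Aldh2 and Zfp981, at distances of 0.88 to 1.32. Ube2d2a, a ubiquitin-conjugating enzyme gene, was at 10.24 in mature mast cells, 7.68 in progenitors and 7.19 in innate lymphoid cells. Mrgprb1, a receptor gene of connective tissue mast cells, was at 10.55, 7.66 and 5.73. Aldh2, which encodes mitochondrial aldehyde dehydrogenase, was at 11.41, 9.20 and 7.19.

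Spink4 encodes a Kazal-type protein best known from goblet cells of the gut. Its level was 6.33 in mature mast cells, 8.41 in progenitors and 6.21 in type 2 innate lymphoid cells. Progenitors alone stood out, while the mature mast cell value lay just above its array's median and the innate lymphoid value below its own. Mature mast cells were 4.23-fold lower than progenitors (log2 difference -2.08). Progenitors were at least 4.30-fold higher than innate lymphoid cells (2.20). Both differences lie close to the 4-fold limit, which makes Spink4 the member just inside the rule. By the same ranking it was 14 of 25 genes lower in mature mast cells than in progenitors and 31 of 46 higher in progenitors than in innate lymphoid cells. Ranked by measured differences, with no level reset, it was 23 of 25 and 39 of 46, toward the end of both lists.

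The genes nearest to Spink4 were Tas2r144, Cstdc6, Cfdp1, Platr25 and Mrpl57, at distances of 0.51 to 0.69. Tas2r144, a bitter taste receptor gene, was at 6.32 in mature mast cells, 7.91 in progenitors and 6.32 in innate lymphoid cells. Cstdc6, which encodes a cystatin-domain protein, was at 6.63 in mature mast cells, 8.03 in progenitors and 5.99 in innate lymphoid cells. Its difference between progenitors and innate lymphoid cells (2.03) passed the 4-fold rule. The innate lymphoid level lay below its array's median, however, and over that median the difference falls short of 4-fold. The other 5 measured genes of the Cstdc name, a set chosen after the values were seen, spread over at most 0.16 log2 units.

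Cst3 encodes cystatin C, a secreted inhibitor of cysteine cathepsins, and it was the only one of the 9 genes with a pair of single-gene probe sets. The probe set with the higher mean was at 8.50 in mature mast cells, 8.45 in progenitors and 8.75 in type 2 innate lymphoid cells. The other was at 8.69 in mature mast cells, 6.83 in progenitors and 8.82 in innate lymphoid cells. They gave like values in mature mast cells and innate lymphoid cells, but in progenitors the second probe set was far lower. By the second probe set mature mast cells were 3.63-fold higher than progenitors and progenitors were 3.96-fold lower than innate lymphoid cells (log2 difference -1.98), which is just outside the 4-fold rule. By the first, mature mast cells were 1.03-fold higher than progenitors and progenitors 1.23-fold lower than innate lymphoid cells. The directions were the same, but their sizes depend on which probe set is read. With arrays quantile-normalized again, the first probe set's log2 difference of mature mast cells minus progenitors was -0.12 in place of 0.05, so it has no settled direction.

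Cstb encodes cystatin B, which inhibits cathepsins in the cytosol. It was at 8.08 in mature mast cells, 8.64 in progenitors and 7.88 in innate lymphoid cells. Progenitors held the highest level. Mature mast cells were 1.47-fold lower than progenitors, progenitors were 1.69-fold higher than innate lymphoid cells, and no pair reached 2-fold. Slpi encodes the secretory leukocyte protease inhibitor, which acts on elastase and cathepsin G. It was tied at 7.37 in all 3 populations.

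Counted by comparison, mature mast cells against progenitors gave 1 of the 9 genes higher (Serpinb1a) and 1 lower (Spink4), beside 0.834% of all genes higher and 0.113% lower. Mature mast cells against innate lymphoid cells gave 1 higher (Serpinb1a) and 1 lower (Ctla2a), beside 0.573% higher and 0.401% lower. Progenitors against innate lymphoid cells gave 1 higher (Spink4) and 1 lower (Ctla2a), beside 0.207% higher and 0.888% lower. The comparisons share arrays, and since the genes were picked with these differences known, nothing is read from their shares. The median log2 difference of the 9 genes was 0 in each comparison, as was that of all genes.

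Relatives of the inhibitors were taken from lists of other clade B serpins, other serpins, cystatins and fetuins, Kazal and WAP genes, and Kunitz, metalloprotease and macroglobulin inhibitors. The cystatin list held no Cstdc gene, so Cstdc6, described above, lies outside it. Of 133 listed genes 118 were measured. None reached 4-fold in any comparison, beside 0.947%, 0.974% and 1.1% of all genes in the 3 comparisons. On all arrays 52 were tied, beside 47.9% of all genes. A spread of 2-fold or more was found for 4 (Serpinb9e, Serpinb9f, Serpina3i and Csta2), beside 4.46% of all genes. For Serpinb9e, Serpina3i and Csta2 the brighter level did not lie above its array's median. These counts are not read as a trait of the relatives. Among 20 cystatin relatives, Cst7, whose product cystatin F is taken to lysosomes of immune cells, was at 7.82 in mature mast cells, 7.87 in progenitors and 7.47 in innate lymphoid cells. Among 31 Kazal and WAP genes the rule named Spink7 first, at 6.17 in mature mast cells, 6.67 in progenitors and 6.11 in innate lymphoid cells. Among 28 serpins of other clades Serpinf2, the antiplasmin gene, was at 6.19, 6.79 and 6.41 in the same order. Among 17 Kunitz, metalloprotease and macroglobulin inhibitors Timp4 was at 6.57, 6.87 and 6.57.

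Among proteases that such inhibitors can meet, those of mast cell granules differed between populations. Of 13 measured mast cell proteases, 2 (Cma2 and Tpsb2) passed 4-fold as higher in mature mast cells than in progenitors, and 3 (Cpa3, Mcpt4 and Cma1) as higher in progenitors than in innate lymphoid cells. These 5 genes passed as higher in mature mast cells than in innate lymphoid cells, and none of the 13 was 4-fold lower in any of these comparisons. Their median log2 difference was 0.54 for mature mast cells minus progenitors, 0.84 for mature mast cells minus innate lymphoid cells and 0.37 for progenitors minus innate lymphoid cells, beside 0 for all genes. The order seen for Serpinb1a, mature mast cells above progenitors above innate lymphoid cells, held for 8 of these 13 genes and for 2.23% of all genes, and 3 of the 13 (Mcpt4, Cma1 and Tpsb2) had steps of at least 2-fold at both points. Here too no floor was set, and tied genes are part of the share. Cpa3, Cma1, Mcpt4 and Tpsb2 are themselves mast cell markers, and a link between their order and that of Serpinb1a was not tested. Ctsg, the cathepsin G gene and named here after its values were seen, was at 8.80 in mature mast cells, 7.90 in progenitors and 7.52 in innate lymphoid cells. Cma1, which encodes a chymase, was at 11.76, 10.42 and 6.85.

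Of 11 measured cysteine cathepsins, the kind of protease that cystatins block, 8 were tied on all arrays, which leaves differences unread. None reached 2-fold. Among all genes only 4.46% spread over 2-fold or more, so nothing is read from this count or from those of the other lists below. Ctsl, which encodes cathepsin L and is named here for its link to Ctla2a, was tied at 6.97. Ctso, a widely expressed cathepsin gene, was at 6.08 in mature mast cells, 6.08 in progenitors and 6.79 in innate lymphoid cells. Of 10 other lysosomal proteases none reached 2-fold, with Ctsd, which encodes the aspartic protease cathepsin D, at 7.86 in mature mast cells, 7.36 in progenitors and 7.06 in innate lymphoid cells. None of 12 granzymes and neutrophil serine proteases reached 2-fold. Gzmb, named here as the target of Serpinb9, was at 6.00 in mature mast cells, 6.26 in progenitors and 6.01 in innate lymphoid cells, all below the array medians.

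**Figure D4:**
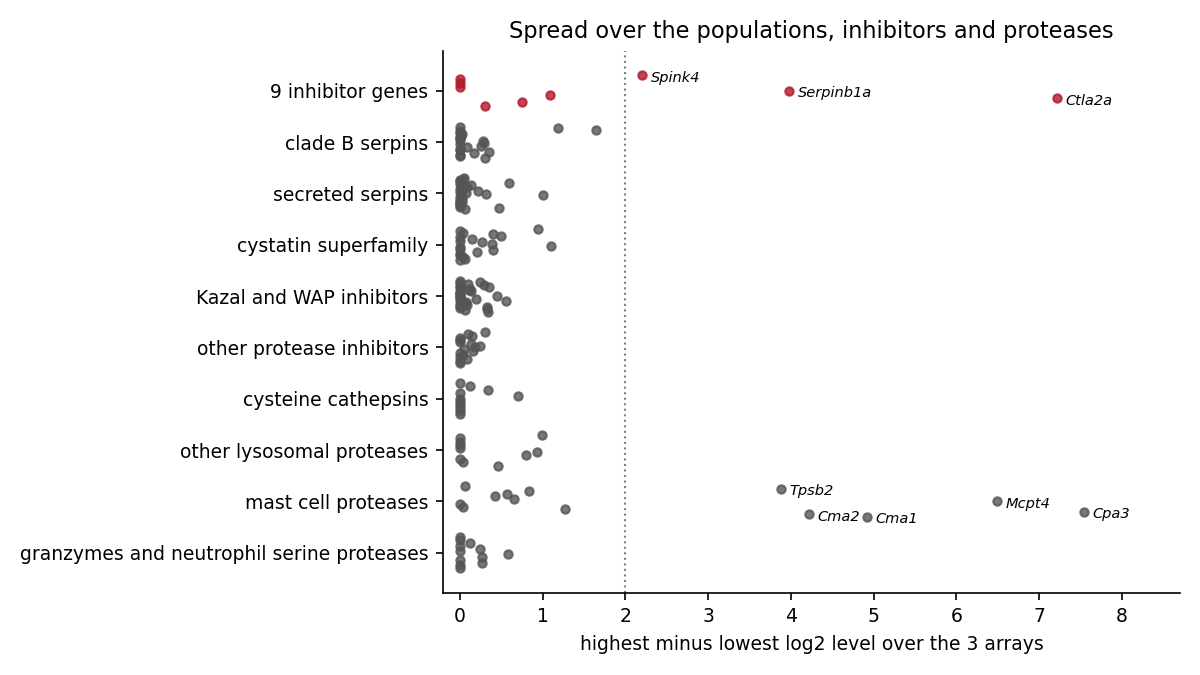
Spread of each gene over the 3 arrays (highest minus lowest log2 level, horizontal axis) for the 9 inhibitor genes (red) and for lists of related inhibitors and of proteases (grey), with 1 point per gene and a dotted line at 4-fold. Beyond the line lie 3 of the inhibitor genes and 5 mast cell proteases, and none of the 118 listed related inhibitors, which do not include Cstdc6 (2.03).

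The population labels were set against marker genes. Of 9 mast cell markers 9 lay above the array median in mature mast cells, 6 in progenitors and 4 in innate lymphoid cells, with summed log2 levels of 89.5, 73.1 and 55.3. Of 8 measured markers of type 2 innate lymphoid cells 4, 4 and 7 lay above it, with sums of 50.8, 50.8 and 59.5. By the 4-fold rule 3 of these 8 were higher in innate lymphoid cells than in each mast cell population, and 2 were tied on all arrays. Kit and Fcer1a, both used by protein to sort mast cells, were at 10.29 and 8.87 in mature mast cells, against 6.88 and 5.37 in progenitors. In innate lymphoid cells, sorted as low or negative for both proteins, they were at 6.63 and 5.05, close to the progenitor values, and Fcer1a lay below the array median in both. Markers of macrophages, B, T and NK cells, neutrophils, eosinophils, dendritic cells and mesothelium spread by less than 2-fold in every case. On each array 7 of 10 macrophage, 4 of 5 B cell, 2 of 5 T cell and 2 of 5 NK cell markers lay above the median. So did 4 of 8 neutrophil, 3 of 4 eosinophil, 4 of 5 dendritic cell and 4 of 5 mesothelial markers. A level above the median alone therefore does not show that a cell type was present. The macrophage sums were 63.5 in mature mast cells, 64.6 in progenitors and 64.0 in innate lymphoid cells, and those of neutrophils, which also make Slpi, 49.3, 50.3 and 50.1. Their part in the inhibitor values was not tested.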

How the data were processed

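The table the authors deposited holds log2 levels for 41345 probe sets, and the submitters' processing notes name RMA without a version. RMA in general corrects background, normalizes arrays together and summarises the probes of a set. The genome build is not given in the sources used here. That the values are log2 was inferred from their range, 2.23 to 13.7. Amplification from 100 cells may drop or distort transcripts, the table marks no detection limit, and the number of arrays limits precision.

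The platform gene table gave 1 gene for 23521 probe sets, several for 1814 and none for 16010. Entrez identifiers of 23328 matched the RefSeq table of GRCm38.p6, used for names and gene order. A gene was represented by its single-gene probe set with the highest mean. Differences of log2 levels were taken with Python 3.11.15 and pandas 2.3.3. Counting was tried on simulated data with differences past the rule planted in bright probe sets only. That trial checks the code, since it held no ties and no planted differences at low levels or near 4-fold. No test could be run on 1 array per population. Promoter sequences are from RefSeq (GRCm38.p6). The windows were aligned with free end gaps.

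The 9 genes and all lists were chosen with earlier results of these data known. Beside all 9 genes, the text names from each list some of the up to 4 members with the largest spread among those above an array median, and for each gene past 4-fold the 5 nearest genes, leaving out provisional names and small RNA, olfactory and vomeronasal receptor symbols. Exceptions are named as such. Other markers and lists are given as counts. Alternatives were 9 settings of floor, scaling, probe sets and size.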

Additional observations from a re-analysis of the deposited data

How the results depend on the processing

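The same 3 genes, Serpinb1a, Spink4 and Ctla2a, made up the counts of inhibitor genes past 4-fold without a floor, with the floor at the 75th percentile, with arrays set to one median or quantile-normalized again, with probe sets averaged or chosen by their highest level, and with probe sets of several genes included. The 2-fold rule added Serpinb1a between progenitors and type 2 innate lymphoid cells. With an 8-fold rule the counts were 0 for mature mast cells against progenitors and 1 (Ctla2a) for progenitors against type 2 innate lymphoid cells, each against 2. Over all genes, the 2-fold rule gave 541 (mature mast cells against progenitors), 577 (mature mast cells against innate lymphoid cells) and 587 (progenitors against innate lymphoid cells), and the 8-fold rule gave 92, 105 and 115, against 210, 216 and 243 at 4-fold, as the rules' own sizes require. Of 135 recomputed differences of single genes none changed its direction where it was counted, or its side of the rule. For the 8 genes with 1 single-gene probe set, Serpinb1a, Spink4 and Ctla2a among them, averaging or choosing such probe sets could not change the value. No probe set of several genes names these 3 either. For them those settings test nothing. The floors could not move a count either, since their highest levels, 11.37, 10.71 and 8.41, lay above the 75th percentiles of 6.85 to 6.86. No other inhibitor gene was 4-fold apart on the levels used, floor or not. Only the scalings and sizes were left, and setting arrays to one median shifts all genes alike. It moved the Spink4 difference of mature mast cells minus progenitors from -2.08 to -2.06. The uncounted differences of mature mast cells minus progenitors changed sign with arrays quantile-normalized again for Cst3 and Ctla2b, and with arrays set to one median for Ctla2b. No paired analysis was possible because each population has 1 array, and no array could be left out for the same reason.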
